A study of Mus musculus with 12 samples.

Results

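The HoxB cluster is the row of 10 Hox genes on mouse chromosome 11 that holds Hoxb13, Hoxb9, Hoxb8, Hoxb7, Hoxb6, Hoxb5, Hoxb4, Hoxb3, Hoxb2 and Hoxb1. It was described through the ChIP-seq peaks that overlap a window of 250 kb around it, chr11:96010000-96260000 on mm9. The window was chosen by the position of the cluster, with it already known from these data that H3K27ac peaks are few there, so its levels are a description and no test was made of them. It held 72 of the 189536 peaks of all 7 lists: 7 of HOXA13, 7 of HOXD13, 1 and 3 of H3K27ac in wild type and double mutant, and 12, 17 and 25 of H3K27me3 in wild type, double mutant and the E10.5 limb bud. All 3 H3K27me3 lists have a peak that crosses the low edge of the window and another that crosses the high edge.

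The samples were mouse forelimb buds. Distal parts of E11.5 forelimbs of mixed C57BL/6 - CD1 background were profiled for H3K27ac, H3K27me3, HOXA13 and HOXD13 in wild type. The 2 histone marks were profiled as well in the Hoxa13-/-;Hoxd13-/- double mutant of the same mixed background, in which a neomycin cassette interrupts the Hoxa13 coding region and a lacZ reporter sits in the first exon of Hoxd13. The series text names dissected distal parts, and the protocol names the E11.5 material ZAP cells. The E10.5 sample is H3K27me3 in the forelimb bud of CD1 mice, made with an antibody of another supplier and not labelled as distal. Stage therefore cannot be told apart from strain, antibody and part of the limb. Every group is a single library. Differences between groups thus lack a replicate check and carry no p-value, and the labels do not say whether embryos were pooled. HOXA13 chromatin was cross-linked with disuccinimidyl glutarate in addition to formaldehyde. The lists hold no read counts, so depth is unknown, and longer lists can come from deeper libraries. For H3K27me3 the wild-type list had 28875 peaks, 19624 of them on autosomes. That of the double mutant had 19358, of which 18973 were autosomal, and that of E10.5 had 17556 and 15077. The E11.5 lists of this mark are thus close in length on autosomes, and their lengths differ mainly outside them. Why they differ there was not tested.

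Hox genes encode homeodomain transcription factors and lie in clusters whose gene order matches the order in which they are used along the body. In limb buds the HoxA and HoxD clusters are the ones known for patterning the skeleton, and their group 13 genes, Hoxa13 and Hoxd13, act in the future digits. HoxB genes are best known from the hindbrain, spinal cord and trunk. Hoxb1 sets the identity of a hindbrain segment, with Hoxb2 acting in the facial motor neurons that arise there. Hoxb4 is known from blood stem cells. Hoxb8, when driven in the anterior forelimb bud of transgenic mice, gives an ectopic polarizing region and mirror-image digits. Polycomb repressive complexes keep Hox clusters silent and leave H3K27me3 over them, often in very broad domains, while H3K27ac marks active promoters and enhancers and cannot sit on the same histone tail lysine as H3K27me3.

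In the RefSeq gene table of GRCm38 the 10 genes follow each other, with rising coordinate, from Hoxb13 through Hoxb9, Hoxb8, Hoxb7, Hoxb6, Hoxb5, Hoxb3, Hoxb4 and Hoxb2 to Hoxb1, ordered by the start of each annotated gene. Hoxb13, the paralogue of Hoxa13 and Hoxd13, is separated from Hoxb9 by noncoding genes and the microRNA gene Mir196a-1. Mir10a lies between the starts of Hoxb3 and Hoxb4. Ttll6 is the nearest protein-coding gene beyond Hoxb13, and Skap1 the nearest beyond Hoxb1. The peaks are on mm9 and this table is on GRCm38, so no peak below is assigned to a gene, and positions are given on mm9 or as the distance from the low-coordinate end of the window.

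The RefSeq promoter table held 3 of the 10 members, Hoxb8, Hoxb4 and Hoxb1. The 250 bases before their starts on GRCm38.p6, plus strand, are shown because both factors had peaks in the cluster. Capitals mark 2 motifs bound by group 13 homeodomains, CAATAAA and TCGTAAA, searched on both strands. Their other strands read TTTATTG and TTTACGA.
Hoxb8: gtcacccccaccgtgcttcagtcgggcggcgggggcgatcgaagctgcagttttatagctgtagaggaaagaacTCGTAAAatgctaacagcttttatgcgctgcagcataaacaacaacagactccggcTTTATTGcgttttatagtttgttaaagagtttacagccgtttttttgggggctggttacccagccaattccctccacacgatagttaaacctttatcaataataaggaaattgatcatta
Hoxb4: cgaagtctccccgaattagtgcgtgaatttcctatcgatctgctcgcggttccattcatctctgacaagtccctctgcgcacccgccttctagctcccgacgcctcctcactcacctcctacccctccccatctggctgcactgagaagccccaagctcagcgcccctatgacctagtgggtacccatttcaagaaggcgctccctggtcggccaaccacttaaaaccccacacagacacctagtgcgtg
Hoxb1: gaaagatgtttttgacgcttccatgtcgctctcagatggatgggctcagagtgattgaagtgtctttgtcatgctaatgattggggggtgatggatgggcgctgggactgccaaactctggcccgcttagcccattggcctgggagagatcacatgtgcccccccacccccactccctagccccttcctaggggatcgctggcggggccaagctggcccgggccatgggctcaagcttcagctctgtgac
The Hoxb8 promoter holds 1 match to each motif, TCGTAAA from 176 to 170 and TTTATTG from 120 to 114 bases before the start, and the matches do not overlap. No match stands in the Hoxb4 or Hoxb1 window. Over all 32851 promoters of this length, 4.20% hold CAATAAA and 0.478% hold TCGTAAA. CG dinucleotides, whose clusters are known places of Polycomb recruitment, number 12 in Hoxb8, 14 in Hoxb4 and 7 in Hoxb1, against a median of 6 over all promoters. Fewer are held by 66.5%, 70.6% and 53.7% of all promoters, so these counts are not extreme. A match is a string of letters and was not tied to a peak.

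H3K27me3 covered most of the cluster in every library. In wild type 87.8% of the window lay in H3K27me3 peaks, against 4.95% of chromosome 11 and 3.005% of all autosomes. In the double mutant the share was 84.6%, against 2.43% of autosomes. At E10.5 it was 67.4%, against 2.03% of autosomes. The map of called peaks along the window shows the same broad blocks in all 3 libraries, with less of the window filled at E10.5.

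**Figure D1:**
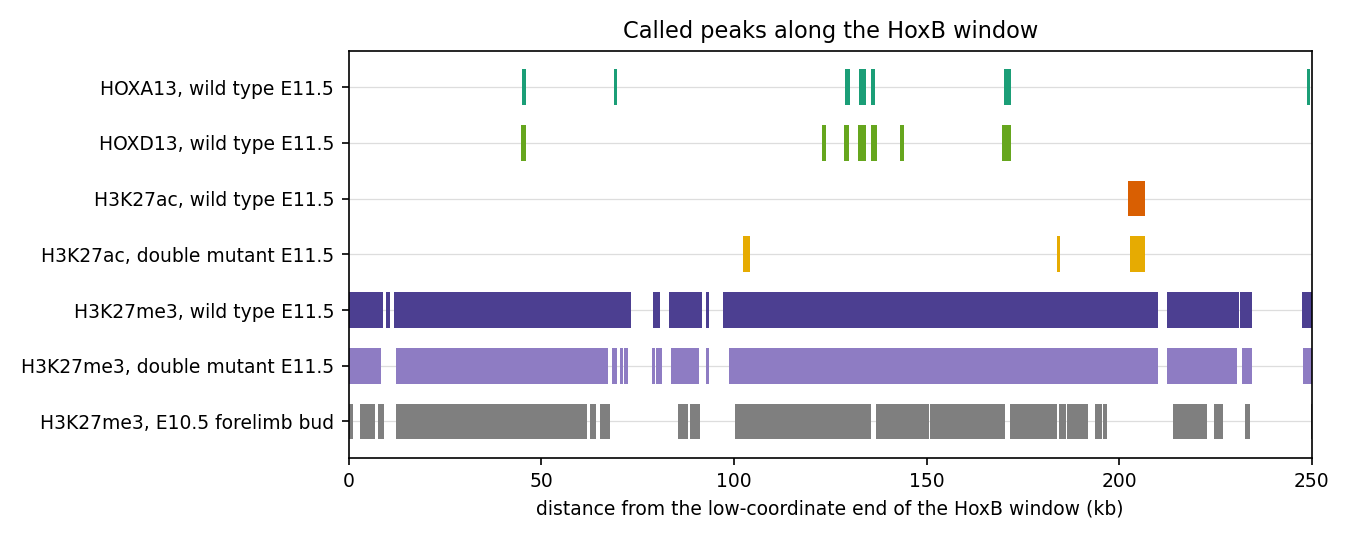
Called peaks in the HoxB window, 1 row per library, with distance from the low-coordinate end of the window in kb on the x axis and each bar a peak cut at the window edges. H3K27me3 bars fill most of the 3 lower rows, the 7 HOXA13 and 7 HOXD13 peaks fall on them, and the H3K27ac rows hold 1 wild-type and 3 double-mutant peaks.

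Among 9873 consecutive autosomal windows of 250 kb that do not touch the cluster, 2 were more covered by H3K27me3 than the HoxB window in each of the 3 libraries. In wild type and double mutant these were chr8:94250001-94500000 and chr15:102750001-103000000. At E10.5 they were the same chromosome 15 window and chr8:123250001-123500000. The HoxB window was placed on its cluster and the others were not placed on anything, so the place is a description.

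The widest wild-type peak of the cluster was one unbroken H3K27me3 call of 113 kb, chr11:96107103-96220059, the third widest of 28875 wild-type peaks. The double-mutant peak at the same place, chr11:96108837-96219393, was 111 kb wide and the second widest of its list. A small peak of score 50.2 followed it after 53 bp and ended at 96220060, 1 base from the wild-type end. The low-coordinate end of the domain lay 1734 bp further in for the double mutant and 3247 bp further in for the first E10.5 peak inside it. At E10.5 the same stretch was called in 13 pieces, the widest being chr11:96110350-96133075 (22.7 kb), and 80.1% of it was covered.

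Towards the low-coordinate end stood another broad domain. Its wild-type peak was chr11:96023383-96081159 (57.8 kb), its double-mutant peak chr11:96022277-96077364 (55.1 kb) and its E10.5 peak chr11:96022384-96071884 (49.5 kb). The last of these was the third widest of the 17556 E10.5 peaks. Next in width were, in wild type, chr11:96222385-96241007 (18.6 kb) and, in the double mutant, chr11:96222455-96239185 (16.7 kb). At E10.5 the third widest peak of the window was chr11:96181551-96193908 (12.4 kb).

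Cut into 10 bins of 25 kb, the window was filled from 25 to 50 kb and from 100 to 200 kb in both E11.5 libraries, with 100% of the bases of each of these 5 bins called. Coverage dipped from 75 to 100 kb, to 57.1% in wild type, 47.3% in the double mutant and 21.0% at E10.5. It was lowest from 225 to 250 kb, the end towards Skap1, at 46.5%, 41.9% and 14.0%. In the 5 bins that were not full in either E11.5 library, wild type had the higher share and the double mutant the middle one, with E10.5 below both.

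**Figure D2:**
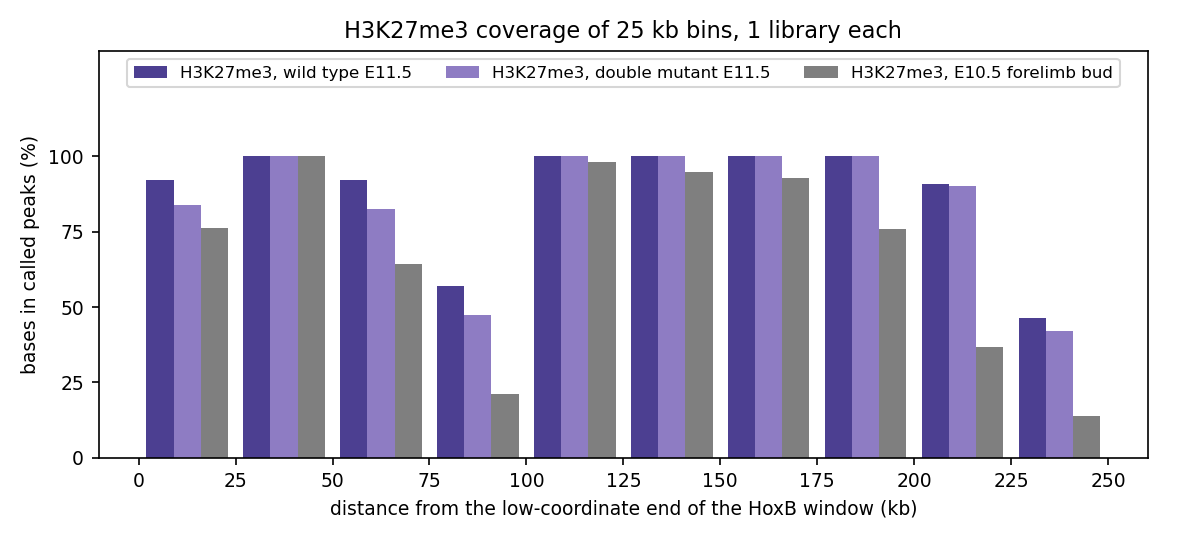
Share of bases in called H3K27me3 peaks (y axis, percent) in 10 bins of 25 kb along the window (x axis, kb from its low-coordinate end), 1 bar per library. The bins from 100 to 200 kb are full in wild type and double mutant and lie between 75.9% and 98.2% at E10.5.

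The bases called in both genotypes were nearly the same. Of the wild-type bases in the window 95.9% were also called in the double mutant, and of the double-mutant bases 99.6% were also called in wild type. Over all autosomes these shares were 73.7% and 91.3%. Only 8.895 kb were called in wild type alone and 0.813 kb in the double mutant alone. Of 12 wild-type peaks 1 had no double-mutant peak, which is 8.33% (exact 95% binomial interval 0.211 to 38.5%) against 30.4% over autosomes. It was the peak chr11:96019735-96020761, with a score of 93.7. The count was 0 with a score of at least 100, with lists of equal length, with neighbouring peaks joined or in the shorter window, and 3 in the longer window, so this call rests on the settings. Of 17 double-mutant peaks 0 lacked a wild-type peak (0 to 19.5%), against 15.8% over autosomes. These intervals cover the counting of peaks only, and wide peaks overlap a partner more easily than narrow ones. Neighbouring peaks can be pieces of 1 domain, so no interval given here is a test against the genome shares.

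In the double mutant no gap of 1000 bp or more lay wholly inside wild-type calls. Shorter gaps did, the longest being chr11:96077365-96078257 (893 bp). Breaks, meaning gaps of 1000 bp or more between neighbouring peaks, were 6 in the wild-type library and 8 in that of the double mutant, summing to 27.9 and 36.2 kb. The double-mutant breaks chr11:96101044-96102687 (1.64 kb) and chr11:96240651-96241933 (1.28 kb) overlapped wild-type gaps of 971 and 459 bp, too short to count as breaks. The longest wild-type breaks were chr11:96244554-96257473 (12.9 kb), chr11:96083172-96088907 (5.74 kb) and chr11:96103602-96107102 (3.50 kb). In the double mutant the longest were chr11:96244617-96257773 (13.2 kb), chr11:96082562-96088714 (6.15 kb) and chr11:96103633-96108836 (5.20 kb). The 3 pairs sit at the same places, and each double-mutant break is the longer of its pair. No E10.5 peak entered any of the 6 wild-type breaks.

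At E10.5 there were 12 breaks, summing to 77.7 kb. With the window longer by 50 kb at each end the counts lay closer together, at 16 at E10.5, 13 in wild type and 15 for the double mutant. In the 250 kb window the longest E10.5 breaks were chr11:96077775-96095538 (17.8 kb), chr11:96206861-96224096 (17.2 kb) and chr11:96244111-96259832 (15.7 kb). Wild-type E11.5 peaks covered 53.6%, 86.5% and 17.8% of them. Of the 12 breaks 6 were covered in full by wild-type peaks and 5 by double-mutant peaks. Of the wild-type bases 76.6% were also called at E10.5, while 99.8% of the E10.5 bases were called in wild type, against 57.7% and 85.3% over autosomes. All 25 E10.5 peaks overlapped a wild-type peak, so 0 lacked one (0 to 13.7%), against 13.6% over autosomes. In the other direction 4 of 12 wild-type peaks had no E10.5 peak, or 33.3% (9.92 to 65.1%), against 50.2% over autosomes. This count was 2 with lists of equal length, 1 with neighbouring peaks joined and 8 in the longer window. Of the 3 H3K27me3 lists, that of E10.5 is the shortest. With all 3 autosomal lists cut to its length by score, the breaks numbered 6, 8 and 12 in wild type, double mutant and E10.5. Such a cut drops whole peaks and leaves the edges of the others in place. It therefore cannot show what a shallower library would give.

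H3K27ac was called at 1 place of the cluster in wild type. This peak, chr11:96212234-96216792, was 4.56 kb wide against a list median of 1628 bp, and its score of 1863 was above that of 77.6% of its list. The double mutant had a peak at the same place, chr11:96212895-96216795, with a score of 1692, above 83.3% of its own list. Of 1 wild-type peak 0 was without a double-mutant peak (0 to 97.5%), against 15.1% over autosomes. Wild-type H3K27ac covered 1.82% of the window and 2.37% of all autosomes, and double-mutant H3K27ac 2.58% and 2.96%. Of the 9873 autosomal windows 40.4% were more covered by wild-type H3K27ac.

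Both marks were called together at that place at E11.5. The acetylated peak lies near the high-coordinate end of the 113 kb domain, and H3K27me3 peaks covered all of its bases in wild type, as in the double mutant. At E10.5 the same bases were free of H3K27me3 calls, since they lie inside the break chr11:96206861-96224096. In wild type 1 of 1 H3K27ac peaks of the window overlapped H3K27me3, against 14.2% over autosomes, and in the double mutant 3 of 3 did (29.2 to 100.0%), against 13.2%. Most of the window lies under H3K27me3, so nothing is read from these counts of overlaps. No sample is H3K27ac of E10.5, and overlapping calls from a piece of tissue do not show that the marks share a cell.

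In the double mutant 2 further H3K27ac peaks were called. The larger, chr11:96112341-96114145, had a score of 331, above 56.3% of its list, and lay 102.3 kb into the window near the low-coordinate end of the 113 kb domain. The smaller, chr11:96193905-96194657, had a score of 67.8, with 33719 of 38115 peaks scoring higher, and spanned a gap of 553 bp between E10.5 H3K27me3 peaks. Thus 2 of 3 double-mutant peaks had no wild-type partner, or 66.7% (9.43 to 99.2%), against 30.4% over autosomes. The interval is wide and peaks of 1 library are not replicates, so no difference from the autosomes is read. Neither peak overlapped a HOXA13 or HOXD13 peak, and H3K27me3 was called over both in both E11.5 libraries. The double-mutant H3K27ac list is longer than the wild-type one, at 38115 against 31933 peaks. Requiring a score of at least 100, or cutting both lists to equal length, left 1 gained peak.

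The window held 7 peaks of each factor, against 3.1 HOXA13 and 2.26 HOXD13 peaks per 250 kb of autosomes. Of the 9873 autosomal windows 9.75% were more covered by HOXA13 peaks and 4.64% by HOXD13 peaks. HOXA13 and HOXD13 peaks merged into 9 sites in the window, of which 5 carried both factors, 2 HOXA13 alone and 2 HOXD13 alone. Of the HOXA13 peaks 5 of 7 overlapped HOXD13, or 71.4% (29.0 to 96.3%), against 63.9% over the whole list. Of the HOXD13 peaks 5 of 7 overlapped HOXA13, or 71.4%, against 86.9%. Numbered from the low-coordinate end, sites 3 to 8 fell inside the 113 kb domain, and sites 4 to 7 lay close together, between 96138709 and 96154168.

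Site 5 scored highest for both factors. Its HOXA13 peak, chr11:96142384-96144165, had a score of 3176, and 3 of 31044 HOXA13 peaks scored higher. Its HOXD13 peak, chr11:96142292-96144285, had a score of 2623, above 99.5% of the HOXD13 list. Scores of 3100 or more, held by 78 HOXA13 peaks, may not be ordered by binding strength.

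Site 8 came next for both factors. Its HOXA13 peak, chr11:96180093-96181895, scored 1314 and its HOXD13 peak, chr11:96179694-96181878, scored 1130. These were above 97.5% and 96.1% of their lists. The highest score among the other peaks of both factors was 396.

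Of the remaining shared sites, site 4 had HOXA13 at chr11:96138800-96140162 (score 396) and HOXD13 at chr11:96138709-96139946 (score 299.8). Site 1, the only shared site outside the 113 kb domain, had HOXA13 at chr11:96054916-96056014 (score 229) and HOXD13 at chr11:96054850-96056064 (score 247). At site 6 the HOXD13 peak chr11:96145548-96147143 scored 249 and the HOXA13 peak chr11:96145719-96146650 scored 70.2. Each score ranks its peak within 1 list and is not compared between factors.

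Sites of 1 factor had low scores, as did the HOXA13 peak of the shared site 6 (70.2). Those of HOXA13 alone were site 2, chr11:96078926-96079766 (score 102), and site 9, chr11:96258739-96259632 (score 61.6). Those of HOXD13 alone were site 3, chr11:96132895-96133937 (score 78.1), and site 7, chr11:96153108-96154168 (score 106). All 4 scored below the median of their list, which was 126 for HOXA13 and 133 for HOXD13.

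All 9 sites lay wholly under wild-type H3K27me3 peaks and none under H3K27ac of either genotype. Thus 7 of 7 HOXA13 peaks (59.0 to 100.0%) overlapped wild-type H3K27me3, against 10.9% of the whole list, and 7 of 7 HOXD13 peaks did, against 11.7%. For wild-type H3K27ac the counts were 0 of 7 (0 to 41.0%) for each factor, against 37.3% of all HOXA13 and 43.5% of all HOXD13 peaks. The window is 87.8% H3K27me3 and 1.82% H3K27ac, so nothing about the factors is read from these counts. Among the 100 autosomal HOXA13 peaks of highest score 91 overlapped wild-type H3K27ac and 7 had H3K27me3 without H3K27ac. The HOXA13 peak of site 5 has H3K27me3 without H3K27ac. For HOXD13 these numbers were 93 and 5, but 119 HOXD13 peaks scored higher than that of site 5. H3K27me3 without H3K27ac was held by 6.55% of all 30657 autosomal HOXA13 peaks and 6.56% of all 22372 autosomal HOXD13 peaks. The 7 and 5 of 100 are near these shares, so nothing particular to site 5 is read from them.

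The double mutant kept H3K27me3 at all 9 sites. It covered 8 of them in full and site 2 to 78.8%. At E10.5, 4 sites were covered in full, and 2 (sites 2 and 9) not at all. Sites 3, 6 and 8 were covered to 91.4%, 30.5% and 39.6%. At site 8 an E10.5 break of 1331 bp, chr11:96180220-96181550, lay within the span of both factors' peaks, and at site 6 an E10.5 break of 1109 bp, chr11:96145683-96146791, lay within the HOXD13 peak. Of 24 E10.5 gaps of any length 5 overlapped a site. E10.5 peaks covered only 67.4% of the window, so nothing about the sites is read from this count. Gaps take up more of the window at E10.5 than at E11.5, so this count is not compared with the other libraries. Factor binding was mapped at E11.5 only, and whether the gaps relate to it was not tested.

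**Figure D3:**
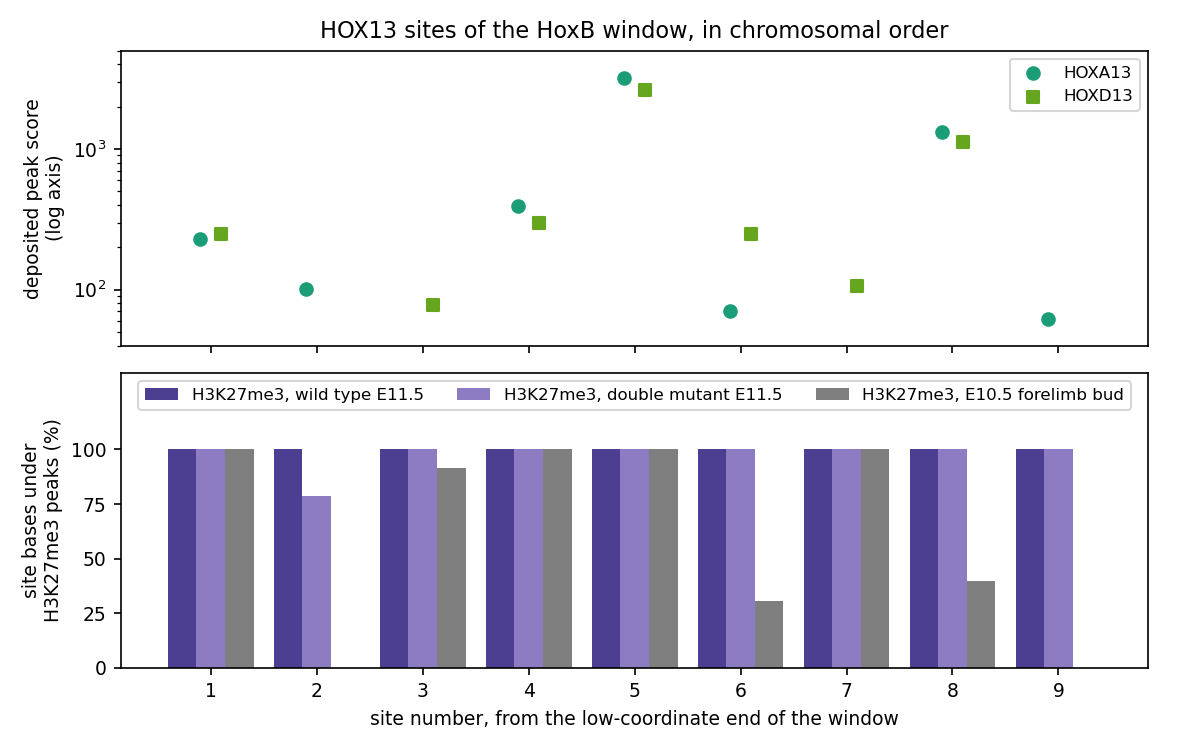
The 9 HOX13 sites of the window in chromosomal order. The upper panel gives the deposited score of the HOXA13 and HOXD13 peak on a log axis and the lower panel the share of each site's bases under H3K27me3 peaks in 3 libraries (percent). Sites 5 and 8 score highest for both factors, wild-type bars stand at 100% at every site, and E10.5 bars are at 0 at sites 2 and 9.

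To place the cluster among other broad Polycomb domains, the 23 autosomal wild-type H3K27me3 peaks of 50 kb or more were compared, of which 2 are in the HoxB window. The double mutant covered 98.4% of the 113 kb domain and 97.2% of the 57.8 kb domain, with a median of 98.1% over the 23. E10.5 covered 80.1% and 91.2%, with a median of 82.3%. Their H3K27ac coverage in wild type was 4.04% and 0%, with a median of 0% and a highest value of 88.1%. HOXA13 peaks numbered 3.54 and 3.46 per 100 kb, near the median of 3.48. HOXD13 peaks numbered 5.31 and 1.73 per 100 kb, with a median of 1.75.

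The 2 wider domains were chr15:102725117-102906289 (181 kb) and chr2:74479846-74605456 (126 kb). The first resembled the HoxB domain in wild-type H3K27ac, at 4.03% of its bases, but had 9.94 HOXA13 peaks per 100 kb. The second had H3K27ac over 52.6% of its bases and 19.1 HOXA13 peaks per 100 kb. In the double mutant H3K27ac covered 16.5% of the chromosome 15 domain, 44.9% of the chromosome 2 domain and 5.72% of the HoxB domain. With 1 library per group these differences have no test.

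**Figure D4:**
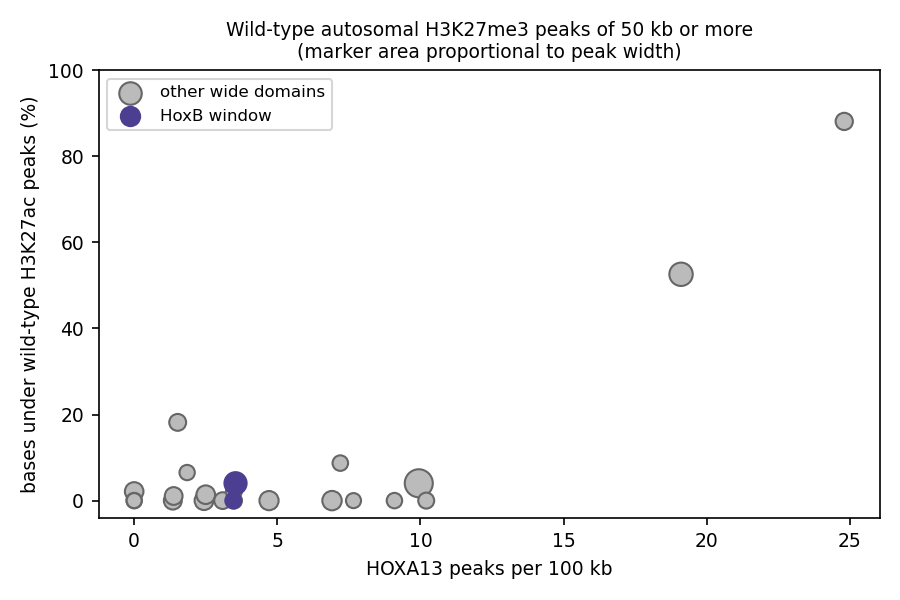
The 23 wild-type autosomal H3K27me3 peaks of 50 kb or more, with HOXA13 peaks per 100 kb on the x axis and the share of bases under wild-type H3K27ac peaks (percent) on the y axis. The 2 HoxB domains (filled) lie at 3.54 and 3.46 peaks per 100 kb with 4.04% and 0% H3K27ac, far from the domains at 19.1 and 24.8 peaks per 100 kb.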

How the data were processed

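The submitters' processing notes name Bowtie 0.12.7, MACS 1.4 and the build mm9. Each of 7 deposited lists gives chromosome, start, end, name and a score per peak, named as called per library against an input. The deposited score is read as -10 log10 of the peak's p-value, as this caller writes it. It depends on depth and input and was ranked only within a list. In each list 6 to 16 peaks lie beyond where GRCm38 chromosome 1 ends (195471971), so peaks were treated as mm9 and not converted. The 5 input libraries were not analysed here. Their labels name H3K27ac of each E11.5 genotype, HOXA13, HOXD13 and E10.5 H3K27me3. No input is labelled for E11.5 H3K27me3 of either genotype, so the labels do not say which input served those lists.

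Peaks overlapping the window by at least 1 bp were taken. Coverage, gaps and overlaps were computed on merged peaks with Python 3.11.15, pandas 2.3.3 and numpy 2.4.6, and exact 95% binomial (Clopper-Pearson) intervals with scipy 1.17.1. The interval functions were tested on simulated data. Shares of factor peaks are over the whole list. All other genome shares are over autosomes, because the number of H3K27me3 peaks on the X differs between the libraries. All factor and H3K27ac peaks of the window are named, with the 3 widest H3K27me3 peaks and the 3 longest breaks per list; other regions were chosen after their values were seen. The window, the members and all lists were chosen with earlier results of these data known. Alternatives numbered 9: a higher score, 2 overlap rules, equal list lengths, joined peaks, 2 break lengths and 2 window sizes. The comparison of peaks of 50 kb or more, of the 100 highest factor peaks and of promoter motifs was added after the data were seen. Promoter sequences and gene order are from RefSeq, GRCm38.p6.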

Additional observations from a re-analysis of the deposited data

How the results depend on the processing

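Of 195 values recomputed under the alternatives, 173 stayed within 1.5 times the reported value and 22 did not. H3K27me3 coverage, shared bases, factor peaks and their overlaps were among the former in all alternatives run. A score of 100 or more, or equal list lengths, left 1 H3K27ac peak gained in the double mutant and 0 wild-type H3K27me3 peaks without a double-mutant peak. Equal lengths left 2 wild-type H3K27me3 peaks without an E10.5 peak. Joining peaks closer than 1000 bp gave 7 wild-type, 9 double-mutant and 13 E10.5 H3K27me3 peaks, 0 wild-type peaks without a double-mutant and 1 without an E10.5 peak. Breaks of 3000 bp or more numbered 3 in wild type, 4 in the double mutant and 6 at E10.5. A window longer by 50 kb at each end held 24 wild-type, 30 double-mutant and 34 E10.5 H3K27me3 peaks with 13, 15 and 16 breaks. There, 3 wild-type peaks had no double-mutant and 8 no E10.5 peak. A window shorter by 25 kb at each end held 7 wild-type H3K27me3 peaks, 0 of them without a double-mutant peak, and 5 double-mutant breaks. No paired analysis was possible because each group holds 1 library. Depth is unknown, so a gap between peaks may be a region below the caller's threshold, and fine differences between the lists cannot be told apart from depth.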
